A study of Homo sapiens with 16 samples.

Results

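Transcripts of CD274, which encodes PD-L1, and of 4 related genes were followed in U2OS cells, a human osteosarcoma line. The 5 genes were chosen by name from the 58735 genes of the deposited expression table: the ligands CD274, PDCD1LG2 (PD-L2) and CD276 (B7-H3), the interferon-induced transcription factor IRF1, and CMTM6, a membrane protein that protects PD-L1 from breakdown. All 5 had a mean of at least 1 FPKM, the filter that 13088 genes of the table passed. FPKM counts the sequenced fragments of a gene scaled to the length of its exons and to the depth of the library, so levels of different genes can be set side by side per length. The genes were picked with their levels in these libraries known. Their fold changes, standard errors (SE) and adjusted p-values therefore describe a fit over all genes and are no independent evidence.

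Before treatment, cells were transfected either with control siRNA that has no target (siNT) or with siRNA to SETD2 (siSETD2), the methyltransferase that places trimethylation on lysine 36 of histone H3. At 48 h after transfection they were left untreated or exposed for 4 h to hydroxyurea (HU, 2 mM), which starves replication forks of deoxynucleotides, to VE-822 (2 µM), an inhibitor of the replication stress kinase ATR, or to both drugs at these doses. The 8 groups held 2 libraries each, R1 and R2. The labels do not say that these were separate cultures, so p-values reflect only how far these libraries lie from each other, and that distance may be technical.

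Libraries held 22310806 to 31101932 assigned fragments. The SETD2 transcript stood at 7.34 to 9.25 FPKM in the 8 siNT libraries and at 2.01 to 4.63 FPKM in the 8 siSETD2 libraries, a mean log2 difference of -1.09 (limma adjusted p = 0.0169). The 4 libraries with VE-822 alone stood apart from the other 12. On the first principal component, which held 46.1% of the variance, they lay at 29.5 to 35.3 and the others at -33.3 to 7.23. The other 12 also split there by number, with R1 at -33.3 to -20.5 and R2 at 0.864 to 7.23. An effect of VE-822 alone and another difference in how the VE-822-alone libraries were made cannot be told apart. Contrasts of VE-822 alone with untreated cells are therefore stated separately. Ranges over all libraries and the mean differences for SETD2 siRNA include the VE-822-alone libraries. Of 7 mesenchymal and bone markers, 5 had a mean of at least 1 FPKM, with TWIST1 and ALPL below it. The same held for 1 of 10 blood markers (CD3D, 1.71 FPKM), 1 of 4 epithelial markers (EPCAM, 1.85 FPKM) and 0 of 3 endothelial markers.

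PD-L1 sits on the surface of tumour and antigen-presenting cells and restrains T cells that carry its receptor PD-1, and PD-L2 is the other ligand of that receptor. Interferon-gamma raises CD274 transcription through JAK kinases, STAT factors and IRF1, and IRF1 binds interferon-stimulated response elements upstream of the gene. Signalling from damaged DNA and stalled forks, including that of ATM, ATR and CHK1, has also been tied to PD-L1 levels in tumour cells. B7-H3 is a checkpoint molecule of the same B7 family that many solid tumours carry, with a receptor that is still debated.

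CD274 and PDCD1LG2 are neighbours on the plus strand of chromosome 9. In GENCODE release 29 coordinates on GRCh38, CD274 (ENSG00000120217) spans chr9:5450503-5470566 and PDCD1LG2 (ENSG00000197646) spans chr9:5510570-5571254. CD276 (ENSG00000103855) lies at chr15:73683966-73714518 on the plus strand. IRF1 (ENSG00000125347) lies at chr5:132481609-132490798 and CMTM6 (ENSG00000091317) at chr3:32481312-32503408, both on the minus strand. CMTM6 shares ground with CMTM7 on the other strand (mean 7.58 FPKM), and IRF1 with C5orf56 (mean 0.143 FPKM). Use of strand in the counting is not given in the sources used here, so fragments of such overlapping genes cannot be told apart.

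The sequences just upstream of CD274 and IRF1 are shown because the first holds the elements through which the second is known to act. RefSeq promoters (GRCh38.p14) matched 4 of the 5 genes. Capitals mark matches to the core of the interferon-stimulated response element, GAAANNGAAA, searched on both strands, and to the STAT site TTCNNNGAA, which reads the same on both strands. The CD274 stretch is chr9:5450292-5450502 on the plus strand and the IRF1 stretch is chr5:132490799-132491023 on the minus strand.
CD274: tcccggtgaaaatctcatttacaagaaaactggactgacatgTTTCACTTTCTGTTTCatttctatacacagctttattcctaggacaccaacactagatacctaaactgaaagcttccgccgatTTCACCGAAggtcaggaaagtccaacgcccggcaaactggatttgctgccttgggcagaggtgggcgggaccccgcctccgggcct
IRF1: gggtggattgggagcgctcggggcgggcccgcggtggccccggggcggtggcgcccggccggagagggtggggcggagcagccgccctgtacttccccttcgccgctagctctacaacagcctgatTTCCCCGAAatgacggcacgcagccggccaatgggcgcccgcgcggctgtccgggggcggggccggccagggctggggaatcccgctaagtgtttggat
The CD274 stretch held 2 response-element cores on the minus strand, TTTCACTTTC at -208 to -199 and TTTCTGTTTC at -202 to -193 from the RefSeq start, which overlap each other. It also held 1 STAT site, TTCACCGAA, at -125 to -117. Upstream of IRF1 there was 1 STAT site, TTCCCCGAA, at -124 to -116, and no match to the response-element core. Over the 250 bases upstream of 35116 RefSeq promoters, 3.02% held at least 1 response-element core, 0.225% held 2 or more, and 6.57% held a STAT site. In the same 250 bases upstream of the RefSeq start, the entries for CD276 and CMTM6 held neither motif.

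CD274 was lower in every library with the ATR inhibitor than in every library without it, whether or not HU was present. Untreated siNT cells held 7.56 FPKM in R1 and 9.70 in R2, and siNT cells in HU held 7.40 and 10.4 FPKM. With HU and VE-822 together the siNT libraries read 2.23 and 4.77 FPKM, and with VE-822 alone 2.20 and 1.79 FPKM. In siSETD2 cells the levels were 9.01 and 10.6 FPKM untreated, 10.5 and 12.3 FPKM in HU, 2.85 and 4.09 FPKM in both drugs, and 2.59 and 2.34 FPKM in VE-822 alone. All 8 libraries without VE-822 thus lay at 7.40 FPKM or above, and all 8 with it at 4.77 FPKM or below. In a bulk library, fewer cells with CD274 transcripts and fewer transcripts per cell cannot be told apart.

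Ordered by group mean (± SD, n = 2), CD274 was highest in siSETD2 cells in HU (11.4 ± 1.23 FPKM), followed by untreated siSETD2 (9.82 ± 1.14), siNT in HU (8.88 ± 2.10) and untreated siNT (8.63 ± 1.51). Each of these 4 groups overlapped its neighbour in the order. Below a gap came siNT and siSETD2 cells in both drugs (3.50 ± 1.80 and 3.47 ± 0.876 FPKM), then siSETD2 and siNT cells in VE-822 alone (2.47 ± 0.175 and 1.99 ± 0.288 FPKM). The pair of groups in both drugs overlapped. Within each siRNA the libraries in both drugs lay above those in VE-822 alone, a difference that was not tested. Those values rest on 191 to 1287 fragments per library, a counting error of 7.24% at the lowest and 2.79% at the highest, which covers counting only and not amplification.

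**Figure D1:**
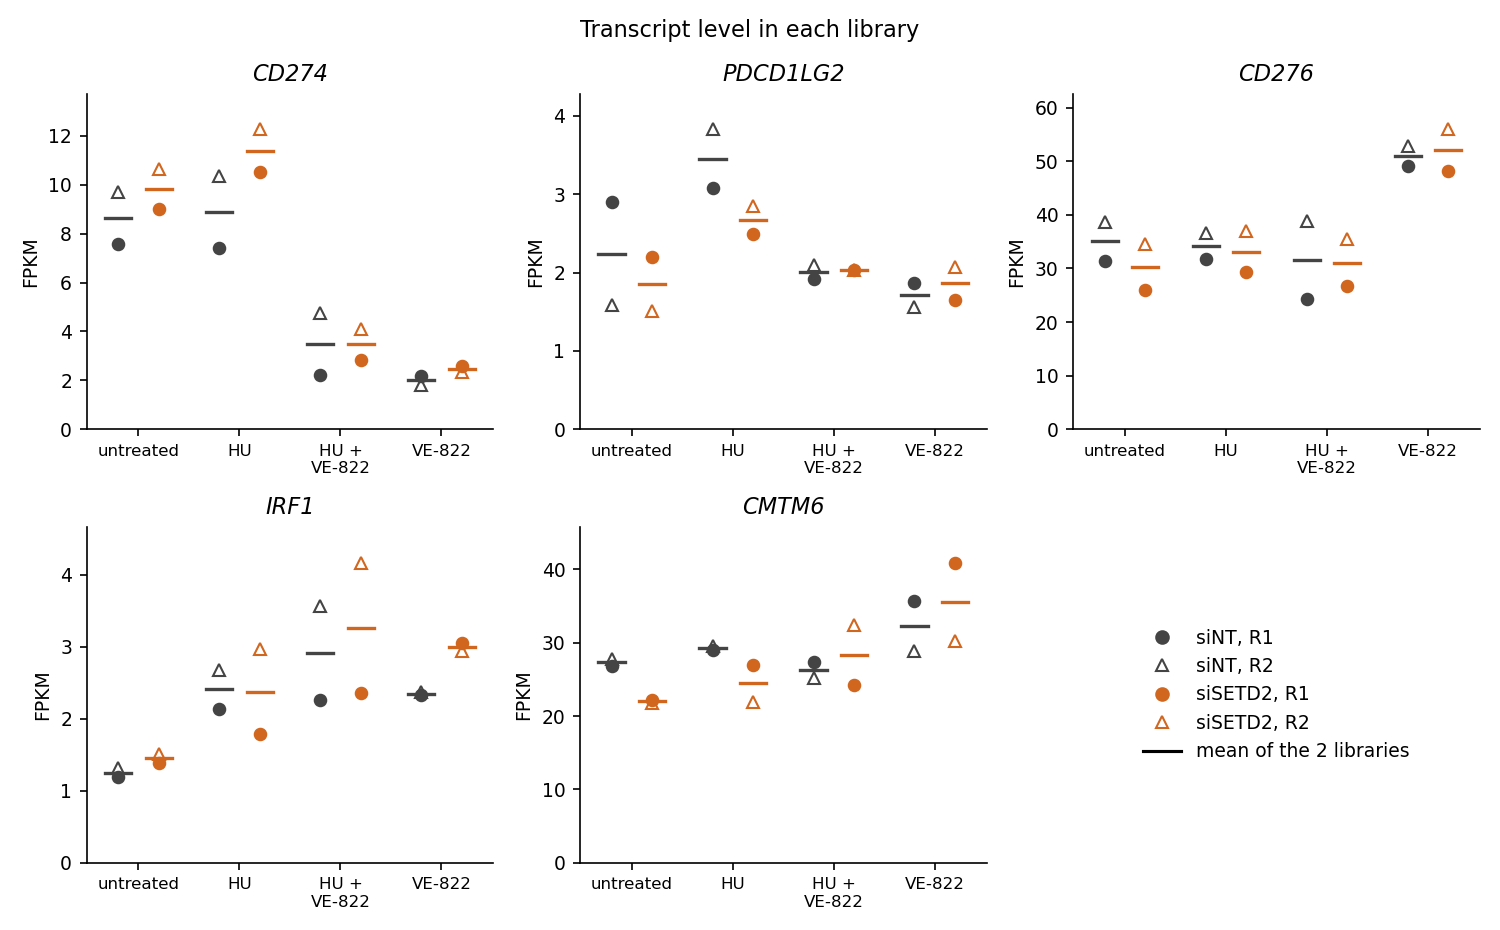
Transcript level (FPKM, linear axis from 0) of the 5 genes in each of the 16 libraries, by treatment; grey marks siNT and orange siSETD2, filled circles R1 and open triangles R2, and bars the mean of 2 libraries. CD274 lies at 7.40 to 12.3 FPKM without VE-822 and at 1.79 to 4.77 FPKM with it, while IRF1 is lowest in the 4 untreated libraries.

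Adding VE-822 to HU left CD274 at 30.1% and 46.0% of its level in HU alone in R1 and R2 of siNT cells, and at 27.1% and 33.4% in siSETD2 cells. The group means were 2.54-fold lower in siNT and 3.28-fold lower in siSETD2 cells. Averaged over both siRNAs the log2 difference on the log2(FPKM + 1) scale was -1.33 (SE 0.182, 95% interval -1.73 to -0.93), the second lowest of the 13088 genes tested. The 4 libraries with both drugs lay below all 4 with HU. In the fit of 8 group means the limma adjusted p was 0.0911, which misses the threshold of 0.05. R1 and R2 deviated together across these groups, and with the replicate number as a block the adjusted p was 0.000583. Within R1 alone the difference was -1.48 and within R2 alone -1.18.

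Few genes passed in that contrast. Without the block 0.00764% of the genes tested did so, a single gene, CENPA, the centromeric histone (1.07, adjusted p = 0.00348), and 1092 genes had an unadjusted p under 0.05. Among the genes followed here 0 of 5 passed by limma-trend and 0 by limma-voom, and 2 (CD274 and PDCD1LG2) had an unadjusted p under 0.05. With the block 1.31% of genes passed, among them 1 of the 5, CD274. Leaving out 1 library at a time without the block gave -1.54 to -1.12. The value of -1.54 came without the siNT R2 library in both drugs, the highest of its 4.

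Against untreated cells, HU with VE-822 gave CD274 a log2 difference of -1.22 (SE 0.182, 95% interval -1.62 to -0.82; limma adjusted p = 0.0515, and 0.000487 with the block). Its rank was 15 from the lowest of 13088. The libraries with both drugs read 2.23 to 4.77 FPKM and the untreated ones 7.56 to 10.6 FPKM, with no overlap. In that contrast 0.0382% of genes passed without the block (NFKB1, ATF3 and GUCD1 higher, FHOD1 and AC090774.2 lower) and 7.3% with it. Of the 5 genes 0 passed without the block, where 2 had an unadjusted p under 0.05 (1781 over all genes) and limma-voom called 1, CD274. With the block IRF1 rose and CD274 fell. A pair of libraries each moved the CD274 call: without siNT R2 in both drugs the adjusted p was 0.0189, and without untreated siSETD2 R1 it was 0.0244.

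CD274 did not differ between HU and untreated cells beyond the spread of the libraries. The log2 difference was 0.11 (SE 0.182, 95% interval -0.29 to 0.51; limma adjusted p = 0.997), with HU above untreated in 3 of 4 pairs of libraries with the same siRNA and number. In HU 0.107% of all genes passed without the block and 1.6% with it, and 992 of 13088 had an unadjusted p under 0.05 without it. None of the 5 passed by limma-trend or limma-voom (0 of 5; 2, IRF1 and PDCD1LG2, had an unadjusted p under 0.05), and IRF1 passed with the block. HU, VE-822 and their combination were each compared with the same 4 untreated libraries, so these differences are not independent of each other.

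VE-822 alone gave the lowest CD274 levels of the series, 1.79 to 2.59 FPKM against 7.56 to 10.6 FPKM untreated. Its level was 29.1% and 18.5% of untreated in R1 and R2 of siNT cells, and 28.8% and 22.1% in siSETD2 cells. The log2 difference was -1.66 (SE 0.182; limma adjusted p = 0.000196), rank 13 from the lowest, and it was -1.68 in siNT and -1.64 in siSETD2 cells (adjusted p = 0.00474 and 0.00397). Much of the table moved with it: 24.7% of genes passed in the mean of both siRNAs, 5.23% in siNT and 10.9% in siSETD2 cells. Of the 5 genes CD276, CMTM6 and IRF1 rose, CD274 fell and PDCD1LG2 did not pass. The summed blood markers were also highest in these 4 libraries (4.19 to 5.27 FPKM, against 2.28 to 3.97 FPKM in the other 12). CD3D made part of that sum and rose by 0.60 on the log2 scale, while CD3E was at 0 in 14 of 16 libraries. PTPRC, the pan-leukocyte marker, had a mean of 0.0207 FPKM and was also highest in VE-822 alone, at group means of 0.0443 FPKM in siNT and 0.0787 FPKM in siSETD2 cells against 0.00214 to 0.0167 FPKM in the other groups. The part of such transcripts in the results for VE-822 alone was not tested.

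PDCD1LG2 showed no such gap between the libraries with and without VE-822. In siNT cells it read 2.90 and 1.58 FPKM untreated, 3.08 and 3.83 FPKM in HU, 1.91 and 2.09 FPKM in both drugs, and 1.87 and 1.56 FPKM in VE-822 alone. In siSETD2 cells the values were 2.20 and 1.51 FPKM untreated, 2.50 and 2.85 FPKM in HU, 2.04 and 2.03 FPKM in both drugs, and 1.65 and 2.07 FPKM in VE-822 alone. The 2 HU groups were the highest. HU stood above untreated in 4 of 4 pairs, with overlapping ranges and a log2 difference of 0.43 (SE 0.135; limma adjusted p = 0.408, and 0.130 with the block). That difference was 0.10 within R1 and 0.76 within R2.

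With VE-822 added to HU, PDCD1LG2 read 1.91 to 2.09 FPKM, below the 2.50 to 3.83 FPKM of HU alone with no overlap. The log2 difference was -0.42 (SE 0.135; limma adjusted p = 0.457, and 0.130 with the block), so it did not pass. Against untreated cells the combination gave 0.01 (95% interval -0.29 to 0.31) and VE-822 alone -0.11 (-0.41 to 0.19). At 90 to 237 fragments per library, the counting error of PDCD1LG2 was 6.50% to 10.5%. The share of all genes whose groups separate without overlap is not reported here. Gaps between ranges, here and for the other genes, are therefore descriptions only.

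CD276 was the most abundant of the 3 ligands, with a mean of 37.3 FPKM against 6.27 FPKM for CD274 and 2.23 FPKM for PDCD1LG2. Untreated libraries ran from 26.0 to 38.7 FPKM, HU from 29.2 to 37.0 FPKM and both drugs from 24.2 to 38.8 FPKM. These 3 ranges overlapped, and the log2 differences were 0.05 for HU, -0.12 for VE-822 added to HU and -0.07 for both drugs against untreated (limma adjusted p = 0.886 to 0.9997). In VE-822 alone CD276 read 49.1 and 52.8 FPKM in siNT and 48.2 and 55.9 FPKM in siSETD2 cells. Those 4 libraries lay above all others, a rise of 0.65 (SE 0.167; adjusted p = 0.0175), opposite in direction to CD274. The call was lost without any 1 of 4 libraries: untreated siNT R1, siNT R2 in VE-822, untreated siSETD2 R1 or siSETD2 R2 in VE-822 (adjusted p = 0.0701, 0.0607, 0.0554 and 0.0670).

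IRF1 is the activator known to act at the response elements printed above. Its transcript did not follow that of CD274, and a part of IRF1 in the CD274 levels was not tested. Untreated cells held the least: 1.18 and 1.32 FPKM in siNT and 1.39 and 1.51 FPKM in siSETD2. In HU it read 2.14 and 2.67 FPKM in siNT and 1.78 and 2.96 FPKM in siSETD2 cells. Both drugs gave 2.26 and 3.57 FPKM in siNT and 2.36 and 4.16 FPKM in siSETD2 cells. All 12 drug-treated libraries lay above all 4 untreated ones.

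In HU the log2 difference of IRF1 was 0.52 (SE 0.159; limma adjusted p = 0.392, and 0.0287 with the block). With a block over all 8 groups it was 0.107, and with the block but without the VE-822-alone libraries 0.0877. Against untreated, HU with VE-822 gave 0.77 (adjusted p = 0.0799, and 0.00378 with the block), and against HU it gave 0.26 (0.743, and 0.195 with the block), with overlapping ranges. VE-822 alone read 2.33 and 2.37 FPKM in siNT and 3.05 and 2.94 FPKM in siSETD2 cells, a rise of 0.64 (SE 0.159; adjusted p = 0.0155). That call was lost without untreated siNT R1, siNT R2 in VE-822 or siSETD2 R1 in VE-822 (adjusted p = 0.0533, 0.0505 and 0.0522).

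The 8 libraries with the lowest CD274 held IRF1 at 2.26 to 4.16 FPKM, above all untreated libraries and overlapping the 1.78 to 2.96 FPKM of HU. Over the 12 libraries of the 6 groups without the VE-822-alone treatment, centred within replicate number, Pearson's r between both genes was -0.61, and over all 16 libraries it was -0.43. These are descriptions over libraries that share treatments and scaling. On the same 12 libraries the r with CD274 was 0.38 for PDCD1LG2, 0.44 for CD276 and -0.30 for CMTM6.

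**Figure D2:**
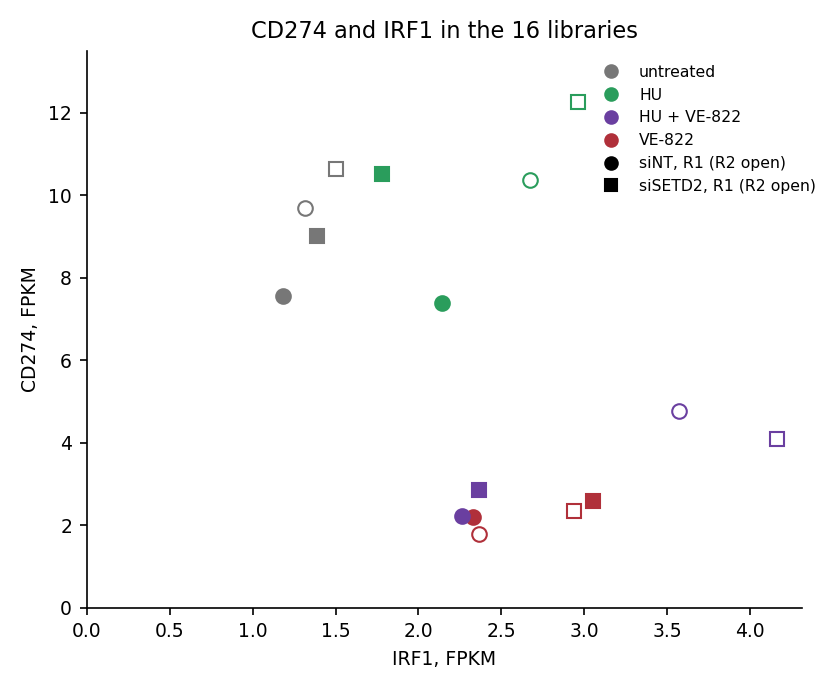
CD274 against IRF1 (FPKM, linear axes) in the 16 libraries; colour gives the treatment, circles siNT, squares siSETD2, filled R1 and open R2. Untreated libraries lie at IRF1 1.18 to 1.51 FPKM with CD274 at 7.56 FPKM or above, and the 8 libraries with VE-822 lie at IRF1 2.26 to 4.16 FPKM with CD274 at 4.77 FPKM or below.

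CMTM6, which stabilises PD-L1 protein at the cell surface and in recycling endosomes, had a mean of 28.2 FPKM. It read 21.8 to 27.8 FPKM untreated, 21.9 to 29.6 FPKM in HU and 24.3 to 32.4 FPKM in both drugs, and these ranges overlapped. The log2 differences were 0.12 for HU, 0.02 for VE-822 added to HU and 0.14 for both drugs against untreated, and none passed. VE-822 alone gave 35.7 and 28.8 FPKM in siNT and 40.9 and 30.3 FPKM in siSETD2 cells, all above the untreated range, a rise of 0.44 (SE 0.127; limma adjusted p = 0.0298). With values rescaled to TPM (transcripts per fixed total) the rise was 0.38 (adjusted p = 0.111), with library totals 0.40 (0.0537) and with no filter on low values 0.44 (0.0550), so the call was lost in each. It was also lost without any 1 of 5 libraries (adjusted p = 0.0567 to 0.116): untreated siNT R1 or R2, siNT R1 in VE-822, untreated siSETD2 R1 or siSETD2 R1 in VE-822.

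**Figure D3:**
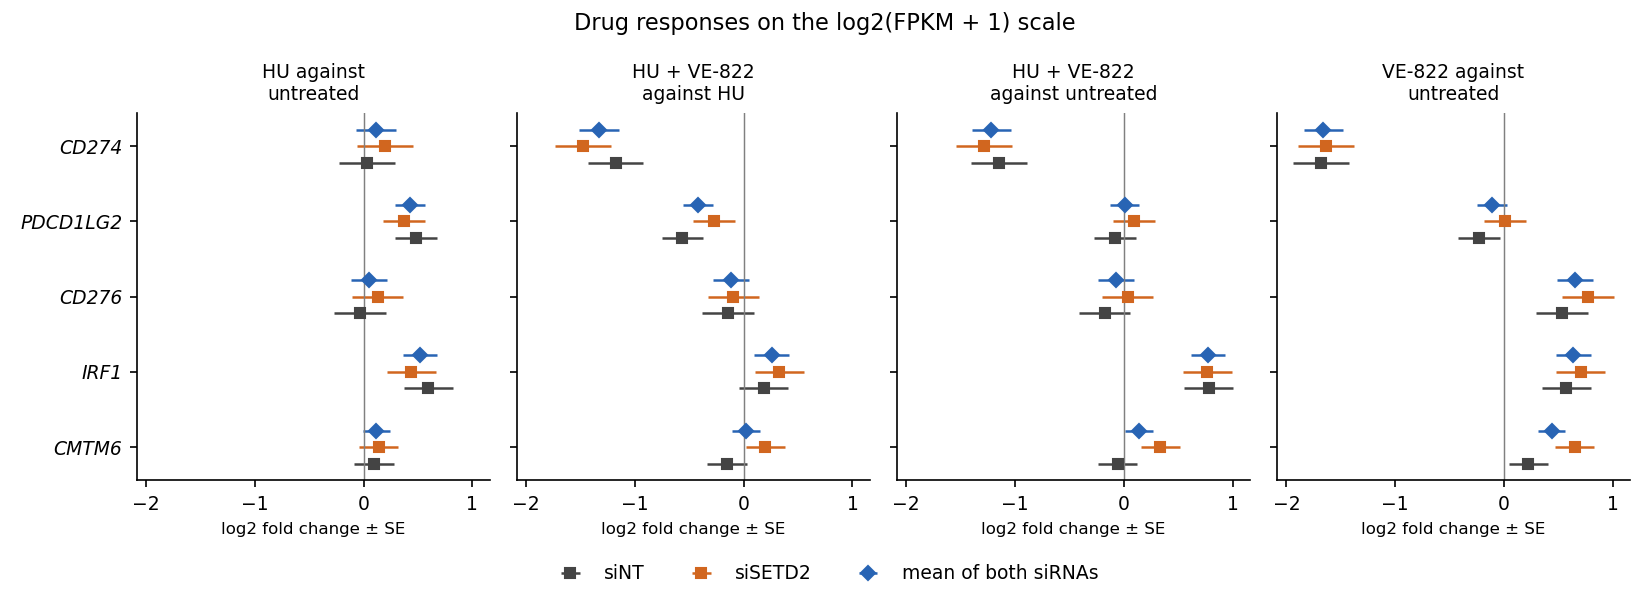
Log2 fold change of the 5 genes (points) with the SE of the limma fit (bars) on the log2(FPKM + 1) scale for 4 comparisons, in siNT (grey), siSETD2 (orange) and the mean of both (blue). In the mean of both siRNAs CD274 lies at -1.33 for VE-822 added to HU and at -1.66 for VE-822 alone, and the other 4 genes lie at -0.42 or above in both.

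SETD2 siRNA moved none of the 5 genes past the threshold. CD274 was higher with siSETD2 in 7 of 8 pairs of libraries, with a mean log2 difference of 0.19 (SE 0.128, 95% interval -0.09 to 0.47; limma adjusted p = 0.692, and 0.155 with the block). The differences were 0.17 untreated, 0.34 in HU, 0.21 in VE-822 and 0.04 in both drugs. For IRF1 the mean difference was 0.11, for CD276 -0.06, for CMTM6 -0.08 and for PDCD1LG2 -0.09, and 0 of the 5 had an unadjusted p under 0.05 or passed by limma-voom. Of all genes tested 0.13% passed, and 1309 had an unadjusted p under 0.05.

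The drug responses of CD274 were also tested for a difference between siRNAs. For VE-822 added to HU the response in siSETD2 minus that in siNT was -0.30 (SE 0.363, 95% interval -1.10 to 0.50), for HU 0.17 (-0.63 to 0.97) and for VE-822 alone 0.04 (-0.76 to 0.84). None passed (limma adjusted p = 0.99994 to 0.99998), and these intervals include differences of either sign.

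Genes of the wider pathway are described by list. For VE-822 added to HU 0.00764% of all genes passed, and for HU 0.107%, so a count of 0 in a list of this size is no different from the whole table and nothing is read from it. Of 20 other checkpoint ligands and related surface molecules, 8 had a mean of at least 1 FPKM. Levels were highest for NECTIN2 (87.4 FPKM) and PVR (71.0 FPKM), both ligands of TIGIT, and for the 4-1BB ligand TNFSF9 (24.9 FPKM). The B7 genes CD80, CD86, ICOSLG, VTCN1, VSIR and HHLA2 lay below 0.1 FPKM on average. Of the 8 tested, 0 passed for VE-822 added to HU by limma-trend or limma-voom (1 had an unadjusted p under 0.05), with a median log2 difference of -0.12 against 0.01 over all genes. NECTIN2 changed by -0.16, PVR by -0.27 and TNFSF9 by -0.07, with adjusted p of 0.535 to 0.971.

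Among 14 tested of 18 interferon receptor, JAK, STAT and IRF genes, 0 passed for VE-822 added to HU by either method, beside 0.00764% of all genes. At an unadjusted p under 0.05 there were 2, beside 1092 of 13088 over all genes, and the median log2 difference was 0.03. The interferon-gamma receptor chain IFNGR1 gave -0.31 and the kinase JAK1 0.04. For 6 tested of 9 targets of IRF1, 0 passed by either method (1 at an unadjusted p under 0.05) and the median was -0.07. The peptide transporter TAP1 gave -0.20 and the immunoproteasome subunit PSMB8 0.13. In HU alone, 0 of these 3 lists' genes passed by either method, and 1, 1 and 0 had an unadjusted p under 0.05. With the block, where 1.6% of all genes passed in HU, IRF3 fell by 0.41 on the log2 scale (limma adjusted p = 0.0183).

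Of 19 genes that act on PD-L1 protein, 19 passed the filter. They include the oligosaccharyltransferase subunits STT3B (106.8 FPKM) and STT3A (43.4 FPKM), which glycosylate it. For HU 0 passed by either method (0 at an unadjusted p under 0.05), beside 0.107% and 992 over all genes. For VE-822 added to HU 0 passed by either method (4 at an unadjusted p under 0.05), with a median of 0.07. Over all genes 0.00764% passed there, and 1092 of 13088 had an unadjusted p under 0.05. STT3B gave -0.25 and STT3A -0.23 for VE-822 added to HU. All 19 differences lay within 0.25 of zero in either direction, beside -1.33 for the CD274 transcript.

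Of 8 other transcription factors tied to CD274, 0 passed for VE-822 added to HU by either method, beside 0.00764% of all genes. At an unadjusted p under 0.05 there were 3, beside 1092 of 13088 over all genes, and the median log2 difference was 0.16. MYC gave 0.33, JUN -0.41 and HIF1A 0.06. NFKB1, the p105 precursor subunit of NF-kB, rose with both drugs against untreated by 0.67 (SE 0.093; limma adjusted p = 0.0483). It read 13.3 to 18.0 FPKM in both drugs and 8.82 to 10.7 FPKM untreated, without overlap, and in HU its rise was 0.46 (adjusted p = 0.127, and 0.0298 with the block). The call for both drugs held in 9 of 11 other settings and in 3 of 16 fits that left out 1 library, and its direction in all of them.

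With VE-822 alone more of these genes passed, as did 24.7% of the table. Of the 8 other ligands CD47, the signal that restrains phagocytosis, rose by 0.998 (16.4 to 19.4 FPKM against 7.05 to 10.5 FPKM untreated) and CD70 rose by 0.77, while PVR fell by 0.43. Of the 14 interferon pathway genes IFNGR1 (0.86), IFNGR2 (0.66), STAT3 (0.37) and IFNAR1 (0.30) rose and 0 fell. Of the 6 IRF1 targets GBP2, an interferon-induced GTPase, read 2.95 to 3.34 FPKM in VE-822 alone and 0.295 to 0.855 FPKM untreated. Its group means outside that treatment were 0.486 to 0.637 FPKM, so it passed the filter at 1 FPKM only through the VE-822-alone libraries and had to differ there. It is given as values with no call. Of the other 5 targets 0 passed, and TAP1 (0.23) and PSMB9 (0.46) did so with the block (limma adjusted p = 0.0255 and 0.00192). With that block 5874 of the 13088 genes tested passed, so nothing about these targets is read from it. Of the 19 protein regulators the ubiquitin ligase gene MARCH8, STT3B and the deubiquitinase gene USP22 rose (0.42, 0.38 and 0.41), and HIP1R and CDK4 fell (-0.32 and -0.38). Of the 8 transcription factors YAP1 (0.30) and NFKB1 (0.28) rose, and JUN (-0.60) and HIF1A (-0.32) fell. The limma adjusted p-values of the genes called were 0.000909 to 0.0487. Directions held in all 9 other settings run for this contrast, and the calls of CD47, PVR, IFNGR2, MARCH8 and CDK4 did so too. In all 16 fits that left out 1 library the calls of CD47, IFNGR2, STAT3 and MARCH8 held, while those of the others were lost in at least 1.

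**Figure D4:**
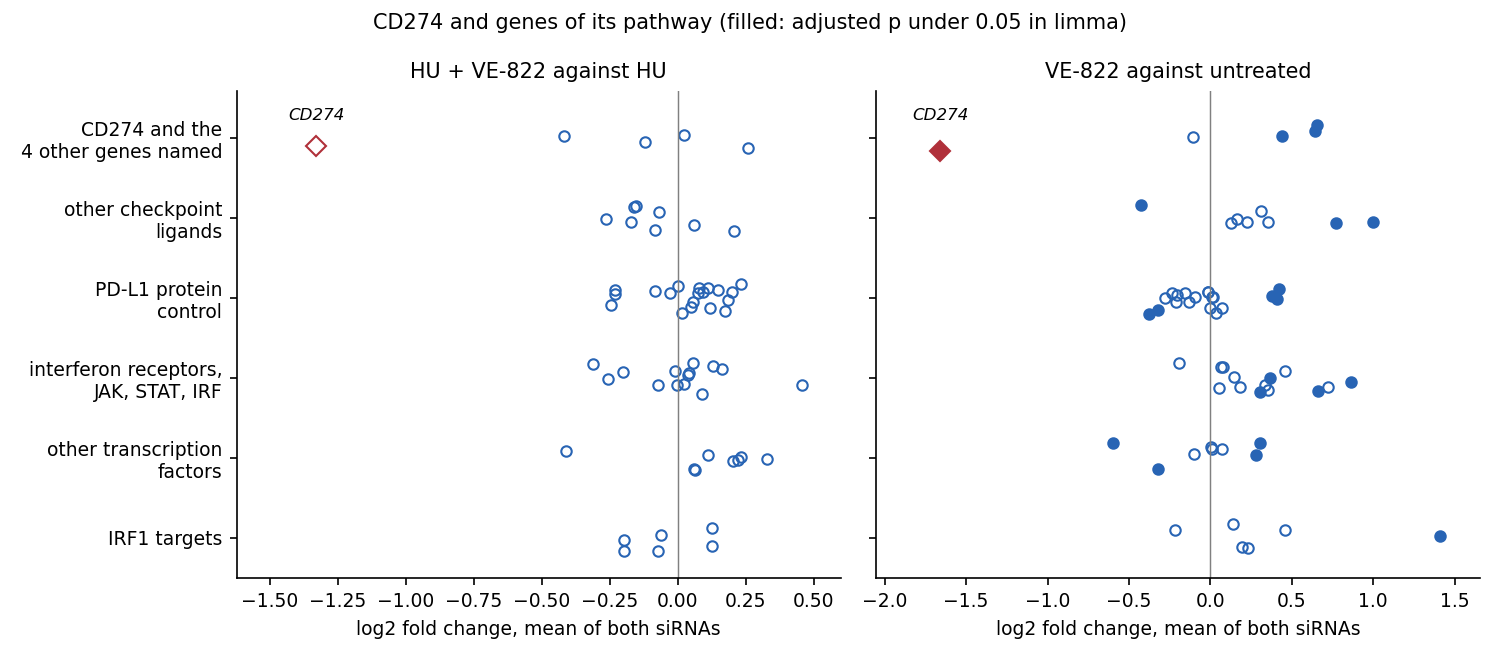
Log2 fold change (mean of both siRNAs, log2(FPKM + 1) scale) of each tested gene of 6 lists for VE-822 added to HU (left) and VE-822 alone (right); each circle is a gene, filled where the limma adjusted p passed 0.05, with vertical scatter only for legibility. CD274 (red diamond) lies at -1.33 and -1.66, to the left of every other gene drawn. In the right panel GBP2 is drawn filled, but it passed the filter only through the VE-822-alone libraries and is given with no call.

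The genes whose pattern was most like that of CD274 were looked for among all genes tested. Over the 12 libraries of the 6 groups without the VE-822-alone treatment, centred within replicate number, the highest Pearson's r among 13088 genes was 0.98 for RANBP6, an importin family member on the same chromosome arm. It was 0.95 for the fatty acid elongase ELOVL1, and 0.93 to 0.94 for FLG-AS1, the BMP antagonist NOG, USP53 and DALRD3. For VE-822 added to HU the log2 difference was -0.43 in RANBP6, -0.45 in ELOVL1 and -0.96 in NOG (limma adjusted p = 0.218, 0.279 and 0.429), beside -1.33 in CD274. NOG averaged 67.2 FPKM in siSETD2 cells in HU and 36.2 FPKM in both drugs. When the VE-822-alone libraries were included, uncentred, ELOVL1 stayed high at r = 0.94 while DALRD3 gave -0.10.

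Genes around CD274 on chromosome 9 had differences of -0.42 to 0.24 for VE-822 added to HU. Within 500 kb lay 11 other protein-coding genes, of which 6 had a mean of at least 1 FPKM. The log2 differences were -0.20 for JAK2, 0.24 for PLGRKT, which lies just before CD274 on the other strand, -0.42 for PDCD1LG2, -0.09 for RIC1, -0.25 for ERMP1 and 0.07 for KIAA2026. None of these passed (limma adjusted p = 0.457 to 0.905), as for nearly all genes of the table. With VE-822 alone KIAA2026 rose by 0.31 (adjusted p = 0.0387) and the other 5 did not pass.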

How the data were processed

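The authors deposited FPKM values for 16 RNA-seq libraries in 1 table. The submitters' processing notes list STAR 2.6.1d, FastQC, DESeq2 1.26.0 and featureCounts 1.5.0-p3, with hg38 as the build. Strand and annotation: not given in the sources used here. All 58735 gene identifiers matched GENCODE release 29, used for names, positions and exon lengths. With those lengths, 100% of the values gave whole fragments (tolerance 0.01), and each library's FPKM denominator was 0.940 to 1.07 times its total.

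The limma package (3.58.1, under R 4.3.3) was run in its trend mode on log2(FPKM + 1), with 1 mean for each of 8 groups and 8 residual degrees of freedom. It took 13088 genes whose mean reached 1 FPKM, in 21 contrasts. Fold changes on this scale understate changes of low genes. Adjusted p is Benjamini-Hochberg over all genes of a contrast, with a threshold of 0.05, two-sided. The fit was tested before use on simulated data with independent noise, the same spread for all genes and no effect of replicate number. That test cannot show how the fit behaves where libraries with the same number deviate together.

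R1 and R2 numbers paired the libraries outside VE-822 alone: deviations correlated at 0.363 to 0.746 over 15 pairs of groups, against -0.05 to 0.30 for 12 pairs with a VE-822-alone group. The pairing comes from the shared numbers and these data. The block is a term for the number in those 6 groups.

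The genes, lists and tests were chosen with earlier results of these data known. From each list, genes past the threshold in a contrast were named or, where none passed, the 3 most abundant. A few genes that this rule names are not reported here. Likeness to CD274 was ranked by Pearson's r (6 genes), and neighbours were taken within 500 kb. Other settings were pseudocounts, filters, scaling, limma-voom on the recovered fragments, blocks and left-out libraries.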

Additional observations from a re-analysis of the deposited data

How the results depend on the processing

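CD274 was lower with VE-822 in every setting run. For VE-822 added to HU, other settings passed the threshold with values rescaled to TPM (-1.48), library totals (-1.33), and each fit with a replicate block (-1.33: adjusted p = 0.00832 over 8 groups, 0.000583 in 6, 0.00801 without the VE-822-alone libraries, where it was 0.218 without the block). Leaving out 1 library gave -1.54 to -1.12. For both drugs against untreated it passed with TPM (-1.32), library totals (-1.23), limma-voom (-1.47) and each replicate block (-1.22), and leaving out 1 library gave -1.43 to -1.01.

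Counts over all genes moved more. In the order HU, VE-822 added to HU, both drugs against untreated and SETD2 siRNA, the fit gave 14, 1, 5 and 17 calls. Without a filter these were 46, 25, 40 and 52, with the block over 8 groups 45, 20, 413 and 147, with it in 6 groups 209, 172, 956 and 508, without the VE-822-alone libraries 0, 0, 0 and 0 by limma-trend (737, 814, 1403 and 778 at an unadjusted p under 0.05), and with the block there 72, 56, 413 and 47. TPM gave 8, 2 and 21 for the first 3, and library totals 2 and 27 for the middle 2. A pseudocount of 0.1 gave 11 for both drugs, and a filter at 0.1 FPKM gave 5 for SETD2 siRNA. VE-822 alone gave 3237 calls, 5122 with the block over 8 groups and 5874 with it in 6. Leaving out 1 library gave 0 to 52, 1 to 3, 0 to 430 and 0 to 208, and 1772 to 4599 for VE-822 alone. The cause of these moves was not tested.

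Small differences changed sign. That of CD276 with SETD2 siRNA was 0.0258 with TPM. When 1 library was left out, CD276 ran from -0.0512 to 0.148 in HU, -0.284 to 0.0442 for VE-822 added to HU, -0.235 to 0.0927 for both drugs and -0.14 to 0.0242 for SETD2 siRNA. PDCD1LG2 ran from -0.141 to 0.156 for both drugs and -0.258 to 0.0399 for VE-822 alone, and CMTM6 from -0.0789 to 0.122 for VE-822 added to HU. Counting error, at most 10.5%, limits PDCD1LG2 most of the 5 genes. In the contrasts averaged over both siRNAs, the replicate block in 6 groups changed no other call of the 5 genes than those printed beside the results. Within single siRNAs it changed more. CD274 passed for VE-822 added to HU in siNT and siSETD2 cells (limma adjusted p = 0.0487 and 0.00656). It also passed for both drugs against untreated (0.0258 and 0.00888). For VE-822 alone CD276 (0.00962 and 0.000857) and IRF1 (0.0133 and 0.00309) passed. IRF1 passed for both drugs in siSETD2 cells (0.0347). With the block the averaged contrasts passed 1.31% of all genes for VE-822 added to HU and 7.3% for both drugs. For VE-822 alone they passed 5874 of 13088. Shares within single siRNAs are not reported here, so nothing about these genes is read from those calls.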

Other observations

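Outside the VE-822-alone treatment, in 6 groups, 3 of the 5 genes followed the replicate number. CD276 read 24.2 to 31.7 FPKM in the R1 libraries and 34.5 to 38.8 FPKM in the R2 libraries, with no overlap. CD274 and IRF1 were each higher in R2 than in R1 in 6 of 6 groups, as CD276 was, whereas PDCD1LG2 was higher in R2 in 3 of 6. For IRF1 the gap was widest in siSETD2 cells in both drugs, at 2.36 FPKM in R1 and 4.16 FPKM in R2.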
